A study of Homo sapiens with 8 samples.

Results

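The HLA class I antigen presentation genes described here were 9 of the 63677 genes in the deposited count tables. They were the heavy chain genes HLA-B, HLA-C, HLA-E and HLA-F, the light chain gene B2M, the peptide transporter genes TAP1 and TAP2, the loading factor gene TAPBP and the transactivator gene NLRC5. They were named by symbol, and the set was chosen with earlier results of these data known. Each symbol had between 1 and 9 identifiers in the tables, and the one with most reads was used. It held all the reads of 8 genes and 99.953% of those of TAP2. RNA was sequenced from 2 human T-cell acute lymphoblastic leukaemia lines, MOLT-4 and DND-41, in 4 groups of 2 libraries. The groups were MOLT-4 cells with ACBI-1, MOLT-4 cells with DMSO, DND-41 cells with ACBI-1 and DND-41 cells with DMSO, all cells being harvested after 8 h, with ACBI-1 at 100 nM. ACBI-1 is a degrader that brings the VHL ubiquitin ligase to SMARCA2, SMARCA4 and PBRM1, subunits of the BAF and PBAF chromatin remodelling complexes. DMSO is its solvent.

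Class I molecules show peptides from inside the cell to CD8+ T cells. Each one is a heavy chain, encoded by an HLA gene, bound to β2-microglobulin, the product of B2M. Peptides cut by the proteasome enter the endoplasmic reticulum through the transporter of TAP1 and TAP2, and tapasin, the product of TAPBP, holds the empty heavy chain at that transporter while a peptide is loaded. NLRC5 is a nuclear protein that binds no DNA itself and is held at class I promoters by the RFX, CREB/ATF and NF-Y factors, and interferons raise the pathway through factors that include IRF1. Low class I expression is a known feature of immature thymocytes and has been reported in some leukaemias.

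With ACBI-1, TAP1, TAP2 and TAPBP rose in MOLT-4 and in DND-41. No heavy chain gene, nor B2M or NLRC5, rose in either line. In DND-41 HLA-B, HLA-C, B2M and NLRC5 fell, and in MOLT-4 HLA-E and NLRC5 fell. HLA-F was at the limit of detection in all 8 libraries. Not all of these calls held in every setting. The MOLT-4 falls of HLA-E and NLRC5 missed the threshold with DESeq2 and when certain libraries were left out. In DND-41 the fall of B2M missed it without DMSO replicate 1. The rise of TAPBP in MOLT-4 was smaller without both MOLT-4 replicate 2 libraries.

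To show what the regulated genes have at their starts, the promoter windows of the genes that rose in both lines (TAP1, TAP2, TAPBP) and of those that fell in DND-41 (HLA-B, HLA-C, B2M) are given from RefSeq, build GRCh38.p14, from 250 bases before to 50 bases after the start. The windows are chr6:32853655-32853954 for TAP1, chr6:32838690-32838989 for TAP2, chr6:33314029-33314328 for TAPBP, chr6:31357130-31357429 for HLA-B and chr6:31272043-31272342 for HLA-C, all on the minus strand, and chr15:44711267-44711566 for B2M on the plus strand. Sequences are written 5′ to 3′ on the gene's strand. Capitals mark matches on either strand to the core of the interferon-stimulated response element, GAAANNGAA, or to an NF-kB motif, GGGNNTTCC.
TAP1: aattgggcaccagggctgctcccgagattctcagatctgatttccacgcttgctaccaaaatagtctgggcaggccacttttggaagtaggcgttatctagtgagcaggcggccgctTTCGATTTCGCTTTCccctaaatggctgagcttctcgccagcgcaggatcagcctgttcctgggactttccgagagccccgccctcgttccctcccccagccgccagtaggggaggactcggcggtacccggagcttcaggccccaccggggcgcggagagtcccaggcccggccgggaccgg
TAP2: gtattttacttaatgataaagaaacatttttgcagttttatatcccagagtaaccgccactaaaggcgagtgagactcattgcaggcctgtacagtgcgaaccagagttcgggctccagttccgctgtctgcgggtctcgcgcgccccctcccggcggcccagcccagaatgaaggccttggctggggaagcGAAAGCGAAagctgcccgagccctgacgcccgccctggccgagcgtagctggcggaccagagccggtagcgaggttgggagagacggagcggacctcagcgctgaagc
TAPBP: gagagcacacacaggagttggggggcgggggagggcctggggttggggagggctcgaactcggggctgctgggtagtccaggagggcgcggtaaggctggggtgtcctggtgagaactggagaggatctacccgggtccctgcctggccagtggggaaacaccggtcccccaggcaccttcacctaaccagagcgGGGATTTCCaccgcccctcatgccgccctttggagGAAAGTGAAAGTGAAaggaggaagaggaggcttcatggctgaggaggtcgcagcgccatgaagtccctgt
HLA-B: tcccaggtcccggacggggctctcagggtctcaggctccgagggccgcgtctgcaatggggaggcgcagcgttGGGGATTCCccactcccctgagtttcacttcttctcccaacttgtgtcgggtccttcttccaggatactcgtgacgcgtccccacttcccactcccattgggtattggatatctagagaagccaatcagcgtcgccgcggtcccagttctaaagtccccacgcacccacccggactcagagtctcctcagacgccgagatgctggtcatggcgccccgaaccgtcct
HLA-C: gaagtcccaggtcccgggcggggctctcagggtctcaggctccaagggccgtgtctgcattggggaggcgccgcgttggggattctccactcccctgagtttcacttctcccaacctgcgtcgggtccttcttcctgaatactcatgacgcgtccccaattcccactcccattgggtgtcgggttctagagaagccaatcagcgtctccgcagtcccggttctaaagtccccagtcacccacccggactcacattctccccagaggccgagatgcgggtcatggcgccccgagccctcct
B2M: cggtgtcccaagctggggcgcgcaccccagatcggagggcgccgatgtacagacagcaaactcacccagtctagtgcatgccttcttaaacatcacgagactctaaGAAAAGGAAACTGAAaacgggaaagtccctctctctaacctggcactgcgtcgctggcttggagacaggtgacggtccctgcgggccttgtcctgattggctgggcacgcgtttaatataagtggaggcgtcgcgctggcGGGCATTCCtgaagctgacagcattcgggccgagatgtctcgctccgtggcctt
The interferon element core was found in the windows of TAP1, TAP2, TAPBP and B2M, and these exact letters were not in those of HLA-B and HLA-C. The HLA-B and HLA-C windows both hold TTTCACTTC, a similar run with another spacing, which was not searched for. The search therefore does not show that these 2 genes lack an interferon element. In TAP1, TAPBP and B2M the core was present as 2 overlapping copies. They lay at −133 to −119 in TAP1, −20 to −6 in TAPBP and −144 to −130 in B2M, counted from 0 at the start site. TAP2 held 1 copy at −58 to −50. The NF-kB letters were found in HLA-B (−177 to −169), TAPBP (−55 to −47) and B2M (−4 to 4). Similar but longer runs were not searched for and are not marked. Examples are GGGACTTTCC in TAP1, GGGATTCTCC in HLA-C and GGGAAAGTCC in B2M. The search therefore does not show which windows lack an NF-kB site. Of 35116 promoter windows of the same length, 8.11% held the interferon element core and 6.58% the NF-kB motif. The shorter CRE letters (TGACG), found in 24.6% of the windows, were present in HLA-B, HLA-C, B2M and TAP2. Those of the CCAAT box (CCAAT), found in 34.6%, were present in HLA-B, HLA-C, B2M and TAP1. These matches describe letters only and do not show binding. Promoter windows were matched for 7 of the 9 genes. Those of HLA-E and NLRC5 were not used here, and the window of HLA-F was matched and is not printed. TAP1 has a second, downstream start with the window chr6:32852712-32853011, which is not printed either. That window held neither the interferon element core nor the NF-kB motif as searched.

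Library totals ran from 19860759 to 20239888 counts, so that 3 counts equal about 0.15 CPM, counts scaled to the effective library size. Levels are CPM with the SD over 2 libraries, and fold changes are log2 values ± SE from 2 libraries against 2, with p-values from edgeR's quasi-likelihood test adjusted by Benjamini and Hochberg over all genes tested. The threshold was an adjusted p of 0.05. Statements that groups overlapped or were separate describe the libraries only. With 2 libraries in each group, separation can be common without any effect, and it was not tested. Nothing in the labels states that replicate libraries were grown as separate cultures, so p-values measure only the spread between libraries, which may be technical. T-lineage markers summed to 2930 to 2980 CPM in MOLT-4 with ACBI-1 and 2890 to 3060 with DMSO, and to 4900 to 5210 CPM in DND-41 with ACBI-1 and 4530 to 4610 with DMSO. These sums hide shifts of single markers in both directions. Mean CD3G was 365 CPM with ACBI-1 against 169 with DMSO in MOLT-4, and 947 against 306 in DND-41. Mean CD7 was 28.4 CPM with ACBI-1 against 74.1 with DMSO in MOLT-4, and 1048 against 2086 in DND-41. In DND-41 the B-lineage list summed to 936 to 980 CPM with ACBI-1 and 1570 to 1590 CPM with DMSO, nearly all of it CD79A, while the defining B-cell genes MS4A1 and PAX5 were at 0 in all libraries. In MOLT-4 it summed to 4.76 to 5.67 CPM with ACBI-1 and 8.25 to 8.66 CPM with DMSO. The 8 myeloid and dendritic markers summed to 0.646 CPM or less in every library. The part of these markers in the results below was not tested.

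In MOLT-4 the replicate 2 libraries of both groups stood apart. The collagen gene COL1A1, a marker of stromal cells, had 0 and 11.4 CPM in the ACBI-1 libraries and 2.21 and 55.4 CPM in the DMSO libraries, the second value in each pair being replicate 2. The summed level of the 6 stromal and epithelial markers ran from 0.688 to 14.9 CPM with ACBI-1 and from 3.94 to 69.9 CPM with DMSO, with EPCAM and PECAM1 at 0. In DND-41 it was 0.19 CPM or less. MOLT-4 fold changes of the class I genes without both replicate 2 libraries are therefore given as well, and for the genes of the surrounding lists and of the marker lists, of which 40 were called in MOLT-4, 29 kept their call in that setting and 0 turned direction. Where a gene named below lost its call, the value stands beside it. These values come from 1 fit with the 4 DND-41 libraries, in which the lone MOLT-4 libraries are assumed to vary like those. In bulk RNA, fewer cells of a type and less RNA per cell cannot be told apart.

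**Figure D1:**
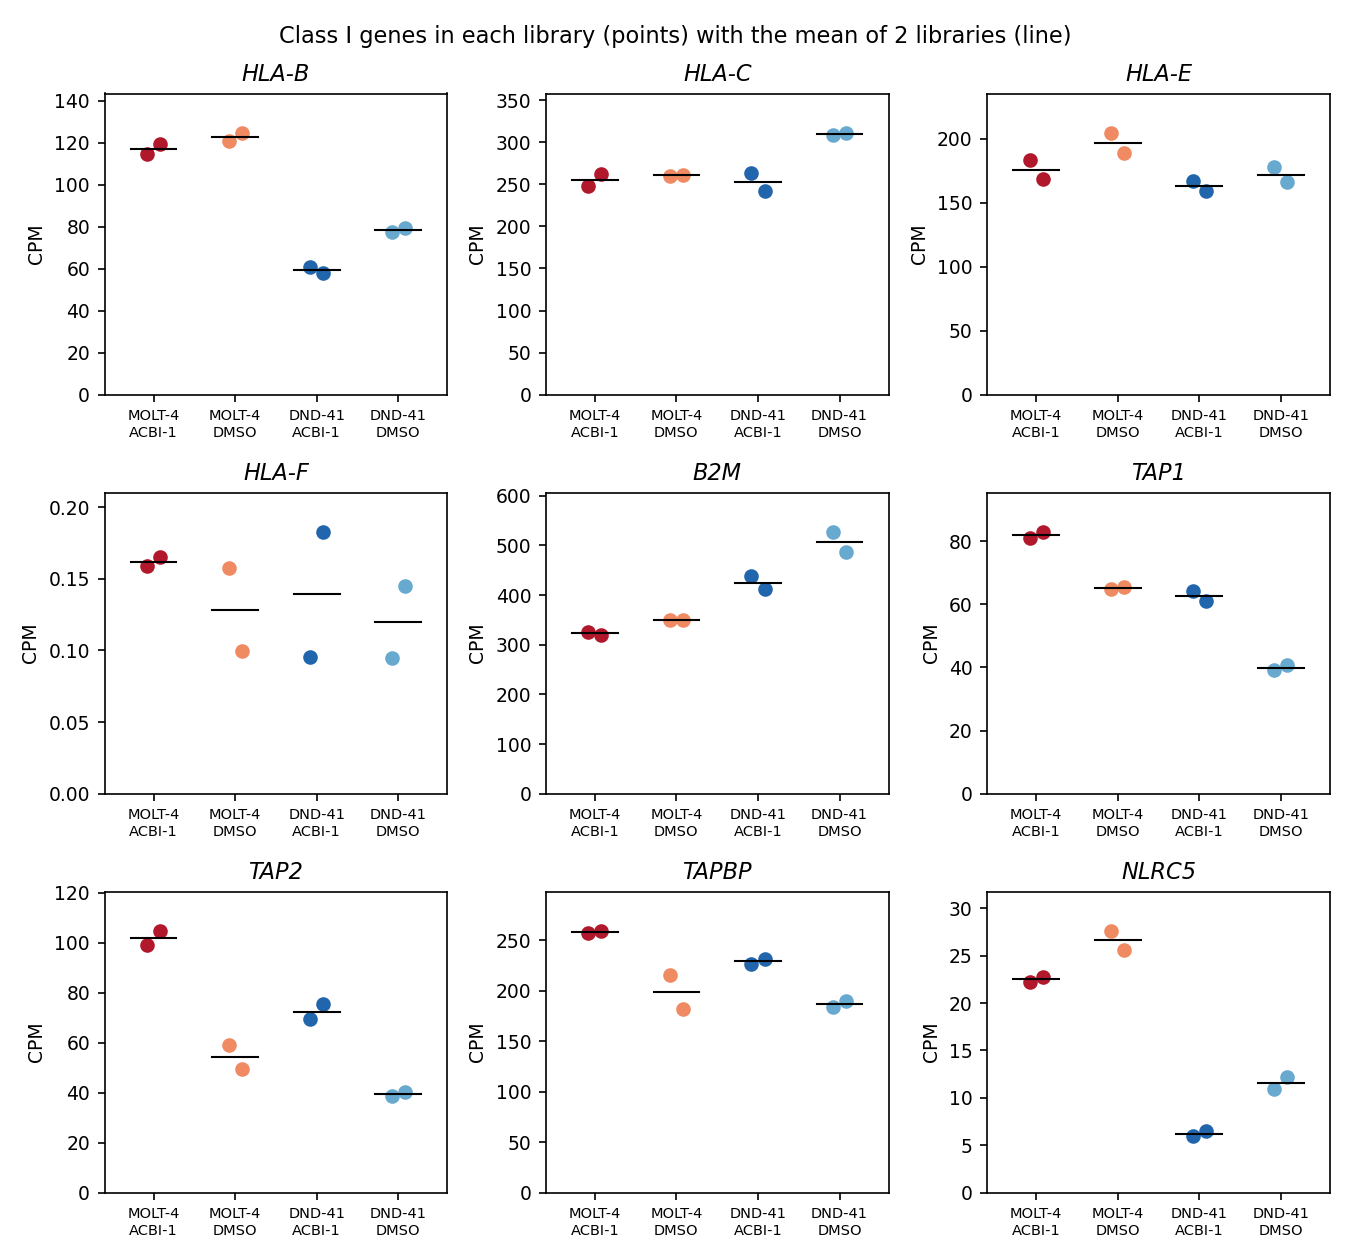
Level of each class I gene in CPM (y axis, from 0) in the 8 libraries, with points for libraries and a line for the mean of 2. TAP1, TAP2 and TAPBP sit higher with ACBI-1 than with DMSO in both lines, without overlap, while HLA-B, HLA-C, B2M and NLRC5 sit lower in DND-41, and HLA-F stays under 0.2 CPM.

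Of the 9 genes, 8 passed the filter on low counts. In MOLT-4, 3 were higher and 2 lower with ACBI-1, and 3 did not pass the test. Among all 14239 genes tested in MOLT-4, 20.7% were called higher and 24.4% lower. In DND-41, 3 were higher and 4 lower, and 1 did not pass. Among all 14008 genes tested in DND-41, 20.0% were called higher and 23.2% lower. With so many genes called in both directions, calls both ways are not particular to these 8 genes. Whether they were called more often than other genes was not tested. The median log2 fold change of the 8 genes was −0.056 in MOLT-4 and −0.15 in DND-41, beside medians of 0.0009 and 0.0104 over all genes tested. With library size alone as the scale, 31.2% of the MOLT-4 calls were higher, against 45.9% in the reported fit. The counts of these 8 genes in each direction stayed the same under that scale.

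Of the heavy chains, HLA-B and HLA-C encode classical class I molecules that present peptides to T cells. HLA-B had 114 and 119 CPM in MOLT-4 with ACBI-1, against 121 and 125 CPM with DMSO. In DND-41 the values were 60.7 and 57.9 CPM with ACBI-1, against 77.6 and 79.4 CPM with DMSO. The treated libraries were lower in both lines without overlap. The gap was narrow in MOLT-4 and wide in DND-41. HLA-B fell in DND-41 (−0.39 ± 0.06, adjusted p = 1.63e-04). In MOLT-4 it did not pass the test (−0.07 ± 0.05, adjusted p = 0.269), nor without both replicate 2 libraries (−0.09, adjusted p = 0.532).

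HLA-C was the heavy chain gene with most reads in both lines. It had 248 and 262 CPM in MOLT-4 with ACBI-1, against 259.8 and 261 CPM with DMSO, and these overlapped. The DND-41 libraries had 263 and 242 CPM with ACBI-1, against 309 and 311 CPM with DMSO, with every treated library below every DMSO library. HLA-C fell in DND-41 (−0.28 ± 0.06, adjusted p = 0.00156) and did not pass the test in MOLT-4 (−0.04 ± 0.05, adjusted p = 0.614), where it was at −0.08 without both replicate 2 libraries (adjusted p = 0.579).

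HLA-E encodes a non-classical molecule that shows leader peptides of other class I chains to natural killer cell receptors. It had 183 and 169 CPM in MOLT-4 with ACBI-1, against 205 and 189 CPM with DMSO. DND-41 cells had 167 and 159 CPM with ACBI-1, against 178 and 166 CPM with DMSO. Treated libraries were lower in MOLT-4 without overlap and overlapped the DMSO libraries in DND-41. HLA-E fell in MOLT-4 (−0.16 ± 0.06, adjusted p = 0.027). That fall missed the threshold when ACBI-1 replicate 2 (−0.10, adjusted p = 0.323), DMSO replicate 1 (−0.10, adjusted p = 0.193) or both replicate 2 libraries (−0.17, adjusted p = 0.197) were left out, and with DESeq2 (−0.16, adjusted p = 0.0816). In DND-41 HLA-E was at −0.06 ± 0.06 (adjusted p = 0.46).

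HLA-F, another non-classical heavy chain gene, had 3 and 3 counts in MOLT-4 with ACBI-1, against 3 and 2 with DMSO, and 2 and 4 counts in DND-41 with ACBI-1, against 2 and 3 with DMSO. No difference was detectable at this depth, and no fold change is given. The summed level of HLA-B, HLA-C and HLA-E was 545 and 549.5 CPM in MOLT-4 with ACBI-1, against 585 and 575 CPM with DMSO. In DND-41 it was 490.4 and 459 CPM with ACBI-1, against 564 and 556 CPM with DMSO. Both pairs were separate, with the treated libraries lower, and the sum was not tested.

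Class I heavy chain genes are near-identical over long stretches, and each line carries its own alleles, while the reads were counted on 1 reference. Reads that fit several of these genes cannot be told apart here. The HLA-H pseudogene had 180 and 175 counts in MOLT-4 with ACBI-1, against 207 and 240 with DMSO, and 343 and 338 counts in DND-41 with ACBI-1, against 383 and 355 with DMSO. Levels of the heavy chains, and above all their differences between lines, are uncertain for that reason.

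B2M, the shared light chain, had 327 and 320.4 CPM in MOLT-4 with ACBI-1, against 350.2 and 349.6 CPM with DMSO. In DND-41 it had 438 and 413 CPM with ACBI-1, against 527 and 487 CPM with DMSO. The treated libraries lay below the DMSO libraries in both lines. B2M fell in DND-41 (−0.24 ± 0.06, adjusted p = 0.00666), but missed the threshold when DMSO replicate 1 was left out (−0.19, adjusted p = 0.195). In MOLT-4 it was at −0.12 ± 0.05 (adjusted p = 0.0861), and at −0.11 without both replicate 2 libraries (adjusted p = 0.429).

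TAP2 and TAP1 encode the paired chains of the peptide transporter. TAP2 had the largest rise of the 9 genes in each line. It had 99.3 and 105 CPM in MOLT-4 with ACBI-1, against 59.0 and 49.6 CPM with DMSO. In DND-41 the values were 69.4 and 75.5 CPM with ACBI-1, against 38.7 and 40.4 CPM with DMSO. All treated libraries were well above the DMSO libraries of their line. The log2 fold change was 0.91 ± 0.07 in MOLT-4 (adjusted p = 2.40e-09) and 0.89 ± 0.07 in DND-41 (adjusted p = 1.17e-07). With both MOLT-4 replicate 2 libraries left out it was 0.74 ± 0.10 in MOLT-4 (adjusted p = 6.54e-05).

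TAP1 had 81.1 and 83.0 CPM in MOLT-4 with ACBI-1, against 64.9 and 65.3 CPM with DMSO. The DND-41 libraries had 64.4 and 61.1 CPM with ACBI-1, against 39.1 and 40.9 CPM with DMSO. The groups were separate in both lines, and treated DND-41 cells came close to the level of MOLT-4 cells with DMSO. TAP1 rose by 0.33 ± 0.06 in MOLT-4 (adjusted p = 1.08e-04; 0.31, adjusted p = 0.026 without both replicate 2 libraries) and by 0.66 ± 0.07 in DND-41 (adjusted p = 1.76e-06). Counts of TAP2 per count of TAP1 were 1.22 and 1.26 in MOLT-4 with ACBI-1, against 0.909 and 0.76 with DMSO. In DND-41 they were 1.08 and 1.24 with ACBI-1, against 0.991 and 0.987 with DMSO. This ratio was higher in the treated libraries of both lines without overlap. Whether the rise differed between the 2 genes was not tested.

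TAPBP, which encodes tapasin, had 257 and 259 CPM in MOLT-4 with ACBI-1, against 216 and 182 CPM with DMSO. DND-41 cells had 227 and 231 CPM with ACBI-1, against 184 and 190.0 CPM with DMSO. Treated libraries were higher without overlap in both lines, and the MOLT-4 DMSO libraries were the widest pair. TAPBP rose by 0.37 ± 0.07 in MOLT-4 (adjusted p = 1.07e-04) and by 0.31 ± 0.06 in DND-41 (adjusted p = 5.35e-04). With both MOLT-4 replicate 2 libraries left out it was 0.24 ± 0.08 in MOLT-4 and missed the threshold (adjusted p = 0.0513).

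NLRC5, the class I transactivator, was the least abundant member after HLA-F and had the largest fall in DND-41. It had 22.2 and 22.7 CPM in MOLT-4 with ACBI-1, against 27.6 and 25.6 CPM with DMSO. In DND-41 it had 5.93 and 6.49 CPM with ACBI-1, against 10.9 and 12.2 CPM with DMSO. The treated libraries were lower in both lines without overlap, with the wider gap in DND-41. NLRC5 fell in DND-41 (−0.88 ± 0.13, adjusted p = 5.57e-05). It fell in MOLT-4 as well (−0.25 ± 0.08, adjusted p = 0.0158), but missed the threshold with DESeq2 (−0.24, adjusted p = 0.151) and when ACBI-1 replicate 1 (−0.23, adjusted p = 0.079), DMSO replicate 1 (−0.19, adjusted p = 0.125) or both replicate 2 libraries (−0.33, adjusted p = 0.0891) were left out.

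**Figure D2:**
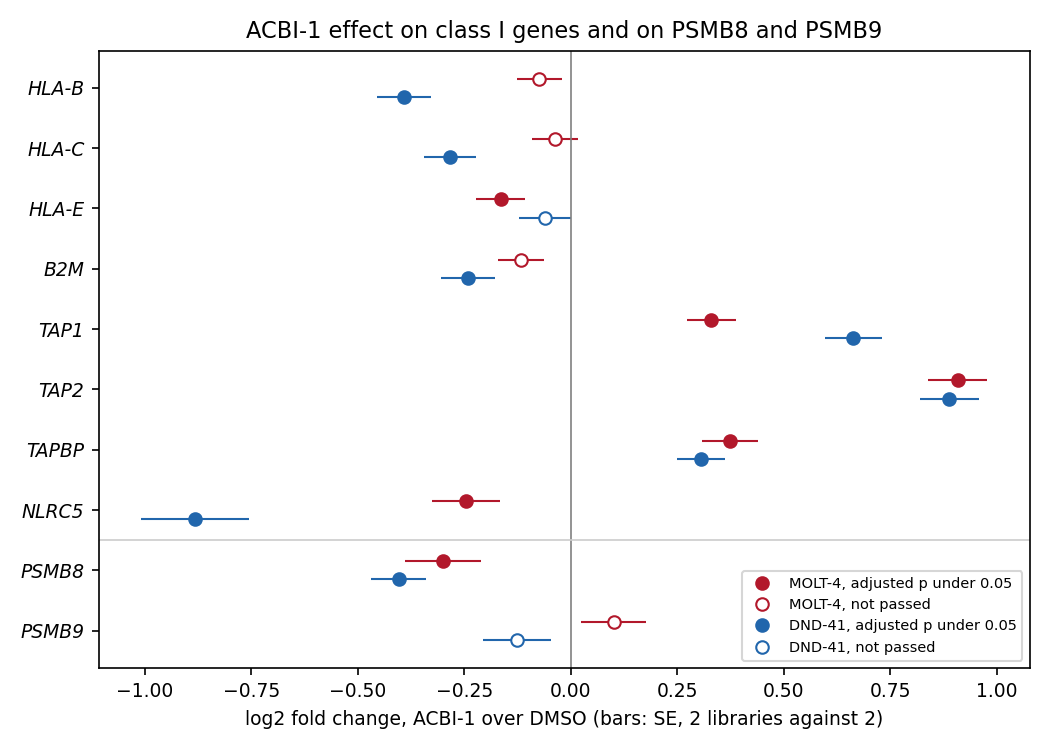
log2 fold change of ACBI-1 over DMSO (x axis, bars: SE) for the 8 tested class I genes and for PSMB8 and PSMB9, with MOLT-4 above DND-41 in each row and filled points for an adjusted p under 0.05. TAP1, TAP2 and TAPBP lie right of 0 in both lines and the heavy chains, B2M and NLRC5 lie left of it, with NLRC5 at −0.88 in DND-41 and −0.25 in MOLT-4.

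Whether the lines responded alike was tested as the difference of the ACBI-1 effect, MOLT-4 minus DND-41, over all 8 libraries. NLRC5 differed by 0.65 ± 0.14 (adjusted p = 0.00441), HLA-B by 0.33 ± 0.08 (adjusted p = 0.00897) and HLA-C by 0.26 ± 0.08 (adjusted p = 0.0371), all with a smaller fall or none in MOLT-4. TAP1 differed by −0.32 ± 0.08 (adjusted p = 0.017), with the smaller rise in MOLT-4. For TAP2 the difference was 0.04 ± 0.11 (adjusted p = 0.895), for TAPBP 0.09 ± 0.09 (adjusted p = 0.645), for B2M 0.14 ± 0.08 (adjusted p = 0.311) and for HLA-E −0.09 ± 0.09 (adjusted p = 0.603). Of the 8 tested members, 3 were thus called higher and 1 lower, beside 7.18% and 6.17% of all 15498 genes tested, and their median was 0.113 beside 0.0042 over all genes. Without both MOLT-4 replicate 2 libraries none of the 4 differences passed edgeR's test, with values of 0.56 for NLRC5 (adjusted p = 0.0858), 0.30 for HLA-B (adjusted p = 0.142), 0.21 for HLA-C (adjusted p = 0.359) and −0.35 for TAP1 (adjusted p = 0.101). The NLRC5 difference passed without each single library. HLA-B ended without DND-41 DMSO replicate 2 (0.32, adjusted p = 0.0538) or MOLT-4 ACBI-1 replicate 2 (0.31, adjusted p = 0.0593). TAP1 ended without either DND-41 DMSO library (−0.28, adjusted p = 0.121 without replicate 1 and −0.34, adjusted p = 0.0503 without replicate 2) or either MOLT-4 ACBI-1 library (−0.29, adjusted p = 0.0925 and −0.33, adjusted p = 0.0542). HLA-C passed without DND-41 ACBI-1 replicate 1 and ended without any other library (0.21 to 0.31, adjusted p from 0.0548 to 0.176). With library size alone as the scale, which shifted the median of all genes to −0.118 and made 26.1% of the calls higher in place of 53.8%, HLA-B (0.21, adjusted p = 0.206) and HLA-C (0.14, adjusted p = 0.411) no longer passed.

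The lines also differed in this pathway without ACBI-1, after 8 h with DMSO. With DMSO, NLRC5 was higher in MOLT-4 than in DND-41, at 26.6 ± 1.43 against 11.6 ± 0.928 CPM (1.20 ± 0.09, adjusted p = 8.84e-10). TAP1 was higher in MOLT-4 too, at 65.1 ± 0.32 against 40.0 ± 1.33 CPM (0.70 ± 0.06, adjusted p = 1.04e-08), and so was TAP2, at 54.3 ± 6.59 against 39.6 ± 1.19 CPM (0.45 ± 0.08, adjusted p = 4.05e-05). HLA-B was higher in MOLT-4, at 123 ± 2.81 against 78.5 ± 1.32 CPM (0.64 ± 0.05, adjusted p = 1.87e-09). B2M was lower in MOLT-4, at 349.9 ± 0.467 against 507 ± 28.4 CPM (−0.54 ± 0.05, adjusted p = 5.64e-08), as was HLA-C, at 261 ± 1.09 against 309.9 ± 1.69 CPM (−0.25 ± 0.05, adjusted p = 1.79e-04). HLA-E was higher in MOLT-4 by 0.19 ± 0.05 (adjusted p = 0.00417), which missed the threshold with library size alone (0.09, adjusted p = 0.226) and when DND-41 DMSO replicate 2 was left out (0.14, adjusted p = 0.0971). TAPBP did not pass (0.09 ± 0.06, adjusted p = 0.239), but did without MOLT-4 DMSO replicate 2 (0.21, adjusted p = 8.86e-04). The 5 genes higher and 2 lower in MOLT-4 stand beside 34.7% and 32.7% of all 14868 genes tested, so most genes differed between these lines in one direction or the other. The median of the 8 tested members was 0.324 beside 0.0119 over all genes.

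Levels between genes can be set side by side only per length, here as CPM per kb of the principal transcript. In MOLT-4, B2M was highest at 190 ± 2.54 with ACBI-1 and 205 ± 0.274 with DMSO. HLA-C followed at 166 ± 6.44 and 170 ± 0.712, and TAPBP at 137 ± 0.866 and 105 ± 12.7, the ACBI-1 value first in each pair. HLA-B (75.5 ± 2.28 and 79.3 ± 1.82) and HLA-E (67.6 ± 4.04 and 75.6 ± 4.26) did not differ beyond their spread with DMSO. TAP2 was at 40.9 ± 1.57 with ACBI-1, above TAP1 at 27.7 ± 0.439, whereas with DMSO the 2 genes did not differ beyond their spread, at 21.7 ± 2.64 and 22.0 ± 0.108. NLRC5 was at 3.30 ± 0.0528 with ACBI-1 and 3.90 ± 0.21 with DMSO.

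In DND-41 B2M, HLA-C and TAPBP were again the highest, in that order. HLA-E, at 62.7 ± 2.04 with ACBI-1 and 66.0 ± 3.24 with DMSO, stood clear of HLA-B at 38.3 ± 1.25 and 50.7 ± 0.85. B2M led at 249 ± 10.1 with ACBI-1 and 298 ± 16.7 with DMSO, and NLRC5 was at 0.91 ± 0.0576 and 1.70 ± 0.136. TAP2 was above TAP1 in both groups, at 29.0 ± 1.73 against 21.2 ± 0.791 with ACBI-1 and 15.8 ± 0.475 against 13.5 ± 0.449 with DMSO, and both lay below HLA-B, HLA-C and HLA-E. The order depends on the length used. Per kb of all annotated exons HLA-C was above B2M, at 102 against 53.2 in MOLT-4 with ACBI-1 and 124 against 83.5 in DND-41 with DMSO. On that scale, in all 4 groups, HLA-E was above TAPBP, with 59.1 against 51.1 in MOLT-4 with ACBI-1, and TAP1 was above TAP2, with 8.32 against 6.19 in DND-41 with DMSO.

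**Figure D3:**
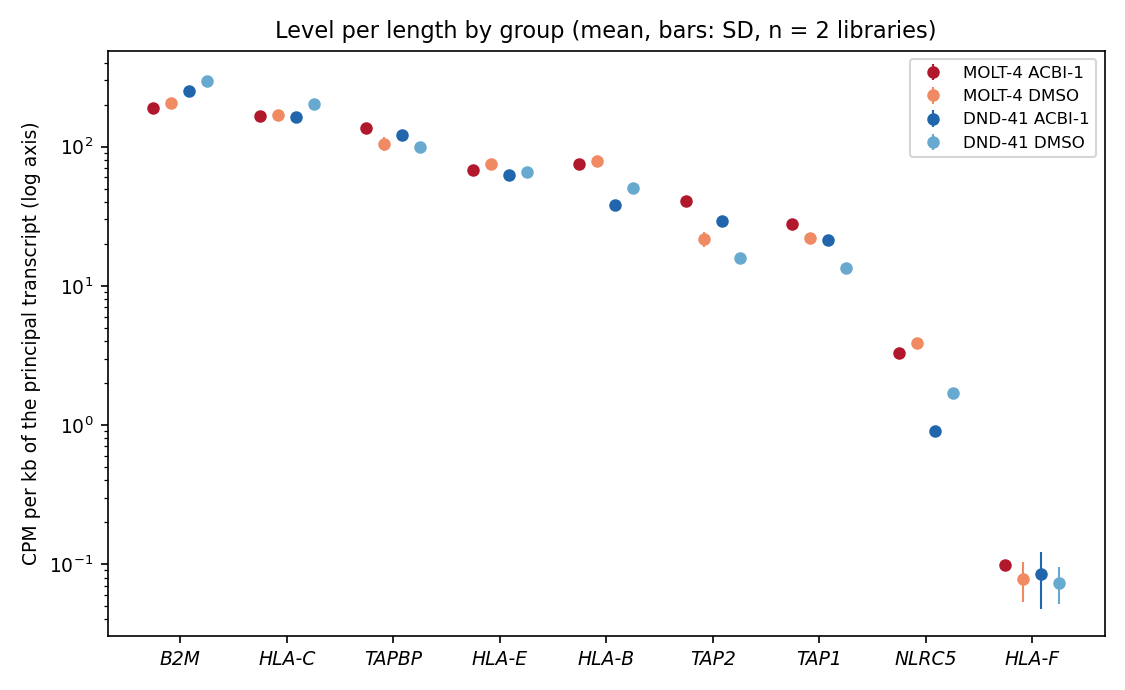
CPM per kb of the principal transcript (log axis) of the 9 genes in each group, as mean with SD over 2 libraries. B2M and HLA-C lie at the top, TAP1 and TAP2 between 10 and 50, NLRC5 at 0.91 to 3.90 and HLA-F near 0.1.

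TAP1 and TAP2 lie in the class II region of chromosome 6 next to PSMB8 and PSMB9, which encode catalytic subunits of the immunoproteasome. In RefSeq the upstream start site of TAP1 and the start site of PSMB9 are 488 bases apart and point away from each other. The upstream start site of PSMB8 is 5940 bases from that of TAP2. PSMB8 has a second, downstream start site, whose window held the interferon element core at −3 to 5, while the window of the upstream site did not hold it. PSMB8 had 34.4 and 40.5 CPM in MOLT-4 with ACBI-1, against 42.2 and 49.6 CPM with DMSO. In DND-41 the values were 43.5 and 42.2 CPM with ACBI-1, against 58.2 and 56.3 CPM with DMSO. It was lower with ACBI-1 in both lines without overlap, with a log2 fold change of −0.30 ± 0.09 in MOLT-4 (adjusted p = 0.00927) and −0.40 ± 0.07 in DND-41 (adjusted p = 1.66e-04). PSMB9 overlapped between the groups in both lines and did not pass the test, at 0.10 ± 0.08 in MOLT-4 (adjusted p = 0.304) and −0.13 ± 0.08 in DND-41 (adjusted p = 0.223).

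Within about 15 kb, TAP2 and TAP1 therefore rose in both lines, PSMB8 fell and PSMB9 did not pass. PSMB8 counts per TAP2 count were 0.346 and 0.386 in MOLT-4 with ACBI-1, against 0.716 and 0.999 with DMSO. In DND-41 they were 0.626 and 0.559 with ACBI-1, against 1.5 and 1.39 with DMSO. The annotated bounds of TAP1 and PSMB9 overlap on opposite strands, as do those of PSMB8 and PSMB9, and those of PSMB8-AS1 overlap all 3 genes. The libraries were made with strand kept, but the strand setting of the counting is not given in the sources used here, so reads in the overlaps may be shared.

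**Figure D4:**
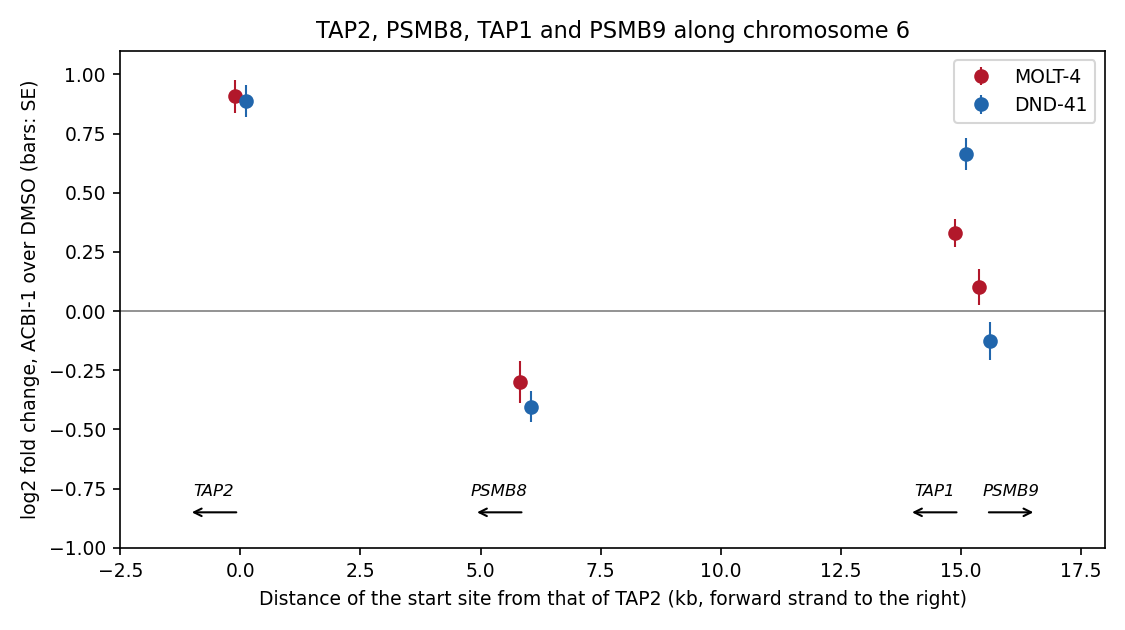
log2 fold change of ACBI-1 over DMSO (y axis, bars: SE) of TAP2, PSMB8, TAP1 and PSMB9, placed by the distance of their start sites from that of TAP2 in kb, with arrows for the direction of each gene. TAP2 and TAP1 lie above 0 and PSMB8 below it in both lines, while the PSMB9 values of 0.10 in MOLT-4 and −0.13 in DND-41 lie on either side.

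Of the 5 immunoproteasome and PA28 activator genes, 0 were higher and 3 lower in MOLT-4, at a median of −0.252. In DND-41 1 was higher and 3 lower, at a median of −0.282. Of all genes tested, 20.7% were higher and 24.4% lower in MOLT-4, and 20.0% and 23.2% in DND-41. These shares stand beside every list count from here on. Whether any list was called more often than other genes was not tested. PSMB10, the remaining immunoproteasome subunit gene, fell by 0.57 in MOLT-4 and by 0.28 in DND-41. PSME1, which encodes the α subunit of PA28, fell (−0.25 ± 0.05 in MOLT-4 and −0.28 ± 0.09 in DND-41), but not past the threshold in MOLT-4 without both replicate 2 libraries (−0.24, adjusted p = 0.254). PSME2, which encodes its β subunit, rose in DND-41 (0.29 ± 0.06) and was at 0.04 ± 0.05 in MOLT-4 (adjusted p = 0.565). Of the 3 constitutive subunits that the immunoproteasome subunits replace, 1 was higher in MOLT-4 and 2 in DND-41, and 0 were lower by edgeR's test in either line. PSMB5, the counterpart of PSMB8, rose in MOLT-4 (0.25 ± 0.08, adjusted p = 0.014; 0.35, adjusted p = 0.0703 without both replicate 2 libraries) and in DND-41 (0.43 ± 0.08, adjusted p = 7.25e-04). PSMB6, the counterpart of PSMB9, rose in DND-41 (0.21 ± 0.07, adjusted p = 0.0333).

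Of 12 other genes of peptide loading and trimming, 2 were higher and 4 lower in MOLT-4, at a median of −0.073. In DND-41 3 were higher and 4 lower, at a median of −0.037. Beside these counts stand 20.7% higher and 24.4% lower of all genes in MOLT-4, and 20.0% and 23.2% in DND-41. TAPBPL, which encodes TAPBPR, a tapasin-related peptide editor, rose with TAPBP in both lines (0.44 ± 0.06 in MOLT-4 and 0.47 ± 0.07 in DND-41). ERAP2, a peptidase that trims peptides in the endoplasmic reticulum, rose in DND-41 (0.38 ± 0.09, adjusted p = 0.00273), and GANAB, a glucosidase subunit of glycoprotein folding, rose in MOLT-4 (0.26 ± 0.06, adjusted p = 0.00222; 0.15, adjusted p = 0.245 without both replicate 2 libraries). The chaperone gene HSPA5 (BiP) fell in both lines (−1.39 ± 0.06 in MOLT-4 and −0.68 ± 0.06 in DND-41), as did CANX, which encodes calnexin, the chaperone of free heavy chains (−0.47 ± 0.06 and −0.35 ± 0.06, with MOLT-4 first). CALR, which encodes calreticulin of the loading complex, fell in DND-41 (−0.45 ± 0.06) and was at −0.18 ± 0.08 in MOLT-4 (adjusted p = 0.0632). Tapasin and TAPBPR genes thus rose while the general chaperones named here did not.

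Of 12 factors known to act on class I promoters, 6 were higher and 1 lower in MOLT-4, at a median of 0.197. In DND-41 8 were higher and 1 lower, at a median of 0.339. The shares over all genes were 20.7% higher and 24.4% lower in MOLT-4, and 20.0% and 23.2% in DND-41. In MOLT-4, 2 of the 6 rises missed the threshold without both replicate 2 libraries. NFYC, a subunit of the CCAAT-binding factor NF-Y, rose in both lines (0.65 ± 0.05 in MOLT-4 and 0.88 ± 0.06 in DND-41). RFX5, the large subunit of RFX, rose as well (0.35 ± 0.05 in MOLT-4 and 0.39 ± 0.06 in DND-41), whereas RFXAP, another RFX subunit gene, fell in DND-41 (−0.56 ± 0.12) and was at 0.08 ± 0.11 in MOLT-4 (adjusted p = 0.592). IRF1, which binds the interferon element marked in the windows above, had 148 and 153 CPM in MOLT-4 with ACBI-1, against 109 and 111 CPM with DMSO. The DND-41 libraries had 231 and 226 CPM with ACBI-1, against 149.6 and 152 CPM with DMSO. It rose in both lines without overlap (0.45 ± 0.05, adjusted p = 6.35e-07 in MOLT-4 and 0.61 ± 0.06, adjusted p = 6.75e-07 in DND-41).

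IRF2, which binds the same element and is known to act on class I genes, went opposite ways. It had 24.1 and 23.7 CPM in MOLT-4 with ACBI-1, against 42.8 and 39.2 CPM with DMSO, and 59.0 and 54.8 CPM in DND-41 with ACBI-1, against 44.8 and 44.7 CPM with DMSO. It fell in MOLT-4 (−0.78 ± 0.08) and rose in DND-41 (0.36 ± 0.07), and this difference passed the test (−1.12 ± 0.10, adjusted p = 2.33e-07).

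Of 10 interferon signalling genes, 2 were higher and 2 lower in MOLT-4, at a median of −0.01. In DND-41 2 were higher and 4 lower, at a median of −0.082. All genes tested gave 20.7% higher and 24.4% lower in MOLT-4, and 20.0% and 23.2% in DND-41. JAK2, a kinase of the type II interferon receptor, rose in both lines (0.55 ± 0.11 in MOLT-4 and 0.44 ± 0.11 in DND-41). Of the 4 receptor genes in the list, IFNAR2 fell in both lines (−0.76 ± 0.08 in MOLT-4 and −0.75 ± 0.08 in DND-41), as did IFNGR2 (−0.28 ± 0.09 in MOLT-4 and −0.45 ± 0.08 in DND-41), which in MOLT-4 lost its call without both replicate 2 libraries (−0.15, adjusted p = 0.428). IFNAR1 fell in DND-41 (−0.22 ± 0.07) and was at −0.08 ± 0.06 in MOLT-4 (adjusted p = 0.34), and IFNGR1 passed in neither line (−0.03 ± 0.10, adjusted p = 0.817 in MOLT-4 and −0.08 ± 0.08, adjusted p = 0.459 in DND-41).

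Class II genes were close to silent in both lines, and 4 of 12 passed the filter in MOLT-4 and 3 in DND-41. CIITA, the class II counterpart of NLRC5, had 0.847 and 1.32 CPM in MOLT-4 with ACBI-1, against 1.05 and 0.795 CPM with DMSO. In DND-41 it had 0.574 and 0.823 CPM with ACBI-1, against 0.712 and 1.21 CPM with DMSO. The groups overlapped in both lines, and CIITA did not pass the test (0.23 ± 0.36, adjusted p = 0.649 in MOLT-4 and −0.43 ± 0.39, adjusted p = 0.404 in DND-41). HLA-DRA was at 0 in all 8 libraries. HLA-DOB, a modulator of class II loading that lies beside TAP2, was higher in MOLT-4 (0.89 ± 0.30, adjusted p = 0.0193) at 2.17 and 2.2 CPM with ACBI-1, against 0.997 and 1.34 CPM with DMSO. HLA-DOA was lower in MOLT-4 (adjusted p = 0.00257), at 0.159 and 0 CPM with ACBI-1, against 0.682 and 0.547 CPM with DMSO, and at 0 in DND-41. Both missed the threshold without the replicate 2 libraries (adjusted p = 0.0871 for HLA-DOB and 0.162 for HLA-DOA).

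Of 11 class I-like genes and stress ligands, 7 were tested in MOLT-4, with 2 higher and 3 lower, at a median of −0.267. In DND-41 8 were tested, with 2 higher and 2 lower, at a median of 0.017. Over all genes the shares were 20.7% higher and 24.4% lower in MOLT-4, and 20.0% and 23.2% in DND-41. HFE, an iron regulator that pairs with β2-microglobulin, had 2.33 and 2.31 CPM in MOLT-4 with ACBI-1, against 0.158 and 0.497 CPM with DMSO. In DND-41 the values were 11.2 and 10.8 CPM with ACBI-1, against 3.13 and 3.09 CPM with DMSO. It rose in both lines (2.78 ± 0.41 in MOLT-4, where the DMSO libraries had 3 and 10 counts, and 1.83 ± 0.14 in DND-41). CD1D, which presents lipids, rose too (0.86 ± 0.09 in MOLT-4 and 0.40 ± 0.11 in DND-41).

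MICA and MICB encode ligands of NKG2D, an activating receptor of natural killer cells, and bind neither peptide nor β2-microglobulin. MICA had 0.741 and 1.65 CPM in MOLT-4 with ACBI-1, against 3.78 and 4.17 CPM with DMSO. The DND-41 libraries had 2.44 and 2.83 CPM with ACBI-1, against 8.73 and 8.94 CPM with DMSO. The treated libraries were far below the DMSO libraries in both lines, and MICA fell by 1.74 in MOLT-4 (adjusted p = 5.54e-05) and by 1.73 in DND-41 (adjusted p = 7.38e-07). MICB fell by 0.73 in MOLT-4 (adjusted p = 4.61e-07) and by 0.74 in DND-41 (adjusted p = 2.16e-06). ULBP1, another NKG2D ligand gene, fell in MOLT-4 (−1.13 ± 0.15) and was at −0.05 ± 0.13 in DND-41 (adjusted p = 0.783), a difference that passed the test (−1.06 ± 0.19, adjusted p = 8.35e-04).

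EZH2, the methyltransferase of the polycomb complex PRC2, which is known to silence class I pathway genes in some tumours, did not pass the test. It had 242 and 236 CPM in MOLT-4 with ACBI-1, against 242 and 229 CPM with DMSO (0.02 ± 0.05, adjusted p = 0.822), and 198 and 191 CPM in DND-41 with ACBI-1, against 190.4 and 185 CPM with DMSO (0.07 ± 0.06, adjusted p = 0.389). Of the 4 PRC2 genes, EZH1 was the 1 called in each line, and it rose (0.50 ± 0.06 in MOLT-4 and 0.34 ± 0.06 in DND-41). The list medians were 0.004 in MOLT-4 and 0.074 in DND-41.

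**Figure D5:**
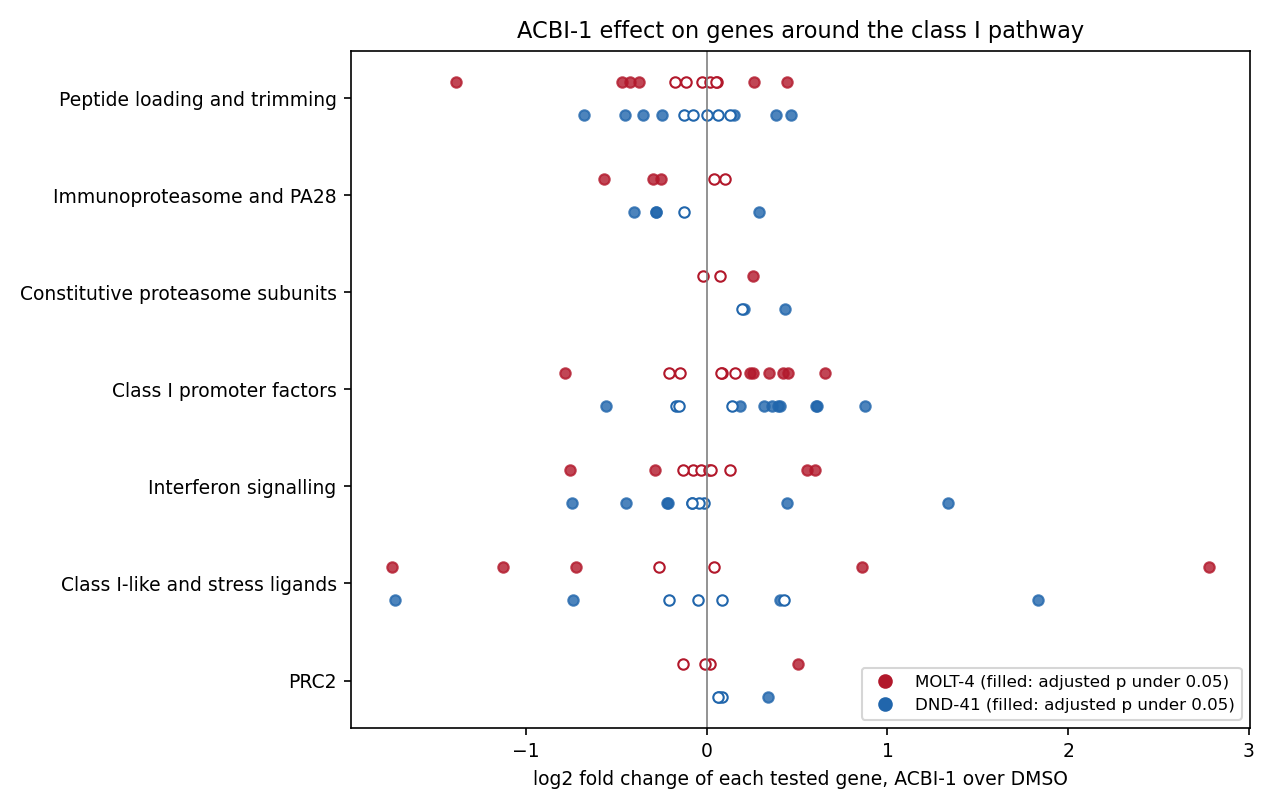
log2 fold change of ACBI-1 over DMSO (x axis) of every tested gene in 7 lists around the class I pathway, with MOLT-4 above DND-41 in each list and filled points for an adjusted p under 0.05. Promoter factors lie mostly right of 0, with IRF2 in MOLT-4 at −0.78, and the stress ligands spread most widely, with HFE at 2.78 and MICA at −1.74 in MOLT-4.

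Of 9609 genes ranked by Pearson's r of log2 CPM with NLRC5 over the 8 libraries, the closest were CERKL (0.9964), DNAJC5 (0.9962), AMD1 (0.9957), PDXP (0.9957) and PRR7 (0.9953). HLA-B stood at rank 21 (0.9921) and HLA-E at 0.7561, while TAP1 (0.4026), TAP2 (0.1392), TAPBP (0.04725), HLA-C (−0.1085) and B2M (−0.6955) lay further down. Closest to B2M were SLC50A1 (0.996), RNPEP (0.9902), UCK2 (0.9899), SH3GLB1 (0.9896) and ANKRD28 (0.9893), while HLA-C stood at 0.7443 and TAP1 at −0.9265. The 8 points form 4 groups of 2 and share their lines and treatments, so these values describe group patterns only.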

How the data were processed

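Strand-specific libraries of total RNA were read as 100 bp paired ends on the DNBSEQ platform, per the labels' protocols. The submitters' processing notes name STAR 2.5.2a, featureCounts, DESeq2 1.12.4 and the hg19 build, without their order. Not given in the sources used here are the annotation, the strand setting and read filters. The deposited counts are whole numbers per gene, unnormalized. The authors also deposited log2 fold changes, p-values and score columns (a mean level and a test statistic). These tables supplied gene symbols. Their sign matched ACBI-1 over DMSO for 6056 of 6056 called genes in DND-41 and for 0 of 6425 in MOLT-4, so their MOLT-4 values run the other way and are not used.

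Groups follow the labels, and 0 count columns were left unmapped. Genes were kept by filterByExpr (minimum count 10), TMM-scaled and tested with edgeR 4.0.16 (quasi-likelihood F test, Benjamini-Hochberg adjustment) in R 4.3.3, within each line, between the DMSO groups, and as the interaction of line and treatment. SEs were taken from the log2 fold change and the F statistic, as their size over its square root. Genes with several identifiers were taken at the one with most reads. CPM use TMM sizes of all 8 libraries. Log2 CPM of replicates correlated at 0.99197 to 0.99529 (Pearson's r), and 0 library pairs were identical. Lengths came from GENCODE 29 by identifier and promoters from RefSeq GRCh38.p14, which is not the authors' build. Figures used matplotlib, and tables Python 3.11.15 with pandas 2.3.3.

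All 9 genes are named, with PSMB8, PSMB9, CIITA, RFX5, IRF1 and EZH2. One other gene of this rule is not reported here. Each other list, the marker lists apart, gives, per line, its 2 rises and 2 falls of lowest adjusted p, or fewer. The marker lists are given mainly as sums. The 5 genes most like NLRC5 and B2M at a mean of 5 CPM or more are named too. The 9 genes and the 12 other lists of 97 genes were chosen with earlier results of these data known. Alternatives were DESeq2 1.42.0, its type of size factors, library size alone, no filter, a minimum count of 50, summed identifiers, a replicate block, all 8 libraries in 1 fit and leaving out each library. Leaving out both MOLT-4 replicate 2 libraries was chosen after seeing the data. Scripts were tested on simulated counts.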

Additional observations from a re-analysis of the deposited data

Results flagged for a closer look

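For 4 of the 8 tested class I genes the ACBI-1 effect differed between the lines by the test of the difference itself, given as MOLT-4 minus DND-41 on the log2 scale. The values were 0.65 for NLRC5, 0.33 for HLA-B, 0.26 for HLA-C and −0.32 for TAP1. In both lines the 2 treated libraries lay on the same side of the DMSO libraries for NLRC5, HLA-B and TAP1. Those of HLA-C overlapped in MOLT-4. These positions describe the libraries within each line, were not tested, and do not bear on the difference between lines. None of the 4 differences passed the threshold by edgeR's test without both MOLT-4 replicate 2 libraries, where they were 0.56, 0.30, 0.21 and −0.35 in the same order.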

How the results depend on the processing

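No class I gene changed direction with a call under any alternative. TAP1 and TAP2 stayed called higher in both lines under every alternative run, and HLA-B, HLA-C and NLRC5 stayed called lower in DND-41. DESeq2 called 1856 genes higher in DND-41, against 2807 by edgeR, and in MOLT-4 1962, against 2948, with 0 class I genes lower there, against 2. With library size alone, 1781 genes were higher in MOLT-4, and for the difference between lines 499 genes were higher, against 1112, with 1 class I gene higher, against 3. Without 1 library, 1745 to 3044 genes were higher in DND-41 and 0 to 2 class I genes lower in MOLT-4. For the difference, leaving out 1 library gave 699 to 1207 genes higher and 621 to 989 lower, with 1 to 3 class I genes higher and 0 to 1 lower. Without both MOLT-4 replicate 2 libraries, 1357 genes were higher and 2232 lower in MOLT-4, against 3477 lower in the reported fit, with 0 class I genes lower. For the difference that setting gave 440 genes higher and 504 lower, against 956 lower, with 0 class I genes higher and 0 lower by edgeR. It tests with fewer libraries, and for the other changes the cause was not tested. With the replicate number as a block, 3217 genes were higher and 3703 lower in MOLT-4, 3297 and 3579 in DND-41, 1398 and 1181 for the difference, and 5058 and 4744 between the DMSO groups, and no call of a class I gene changed. Same-numbered libraries deviated together within a line (0.222 in MOLT-4 and 0.196 in DND-41 over 9718 genes) and not across lines (−0.132 with ACBI-1 and −0.0703 with DMSO), but the labels do not say what a number shares. HLA-F, at 2 to 4 counts per library, is beyond what this depth can compare.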
